A study of Mus musculus with 6 samples.

Results

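The transcription factor p53, encoded by Trp53, and 9 of its target genes were followed in liver RNA of 6 mouse libraries, 3 labelled Arid2 LKO (LKO, read here as liver knockout, is not spelled out by the labels) and 3 labelled WT, all labelled as untreated. The 10 genes were chosen by name as Trp53, Cdkn1a, Mdm2, Ccng1, Bax, Phlda3, Trp53inp1, Bbc3, Zmat3 and Eda2r, out of 54532 gene identifiers in the tables, and all 10 were found. ARID2 belongs to PBAF, a complex that remodels chromatin. The title of the series names fatty liver and turnover of the kinase JAK2 as its subject. No source used here gives strain, age, sex or the driver of the deletion, or says whether the libraries came from different animals, so the spread behind each p-value may be partly technical.

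In unstressed cells p53 is kept scarce by the ubiquitin ligase MDM2, whose own gene is a p53 target, which closes a feedback loop. DNA damage and other stresses stabilise the protein, and it then binds pairs of a short DNA element near genes for cell cycle arrest (CDKN1A, also called p21), apoptosis (BAX and PUMA, the product of Bbc3) and DNA repair. Much of the control acts on the protein, so the Trp53 transcript need not follow p53 activity, and Cdkn1a is also transcribed in response to signals other than p53. In human cells the PBAF subunits BRD7 and PBRM1 take part in the transcription of some p53 targets, CDKN1A among them.

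The promoter windows of 3 members are shown, and no link between these sequences and the levels was tested. They are Cdkn1a, the tested member with no overlap between genotypes, at its upstream and downstream starts, Ccng1, which split the LKO libraries, and the feedback gene Mdm2. The windows are from RefSeq on GRCm38.p6, the assembly also called mm10, and run from 250 bases before to 50 bases after an annotated start, in the direction of transcription. Windows existed for 8 of the 10 members. Capitals mark matches on either strand to the p53 decamer consensus and, in Cdkn1a, the pair of CATG cores that joins to one of them.
Cdkn1a, upstream start, chr17:29090729-29091028, plus strand: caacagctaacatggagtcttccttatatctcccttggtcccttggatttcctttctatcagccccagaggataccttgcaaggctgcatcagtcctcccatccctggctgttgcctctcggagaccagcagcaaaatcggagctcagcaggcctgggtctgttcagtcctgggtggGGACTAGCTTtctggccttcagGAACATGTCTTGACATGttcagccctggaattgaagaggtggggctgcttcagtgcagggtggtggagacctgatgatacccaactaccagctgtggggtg
Cdkn1a, downstream start, chr17:29093519-29093818, plus strand: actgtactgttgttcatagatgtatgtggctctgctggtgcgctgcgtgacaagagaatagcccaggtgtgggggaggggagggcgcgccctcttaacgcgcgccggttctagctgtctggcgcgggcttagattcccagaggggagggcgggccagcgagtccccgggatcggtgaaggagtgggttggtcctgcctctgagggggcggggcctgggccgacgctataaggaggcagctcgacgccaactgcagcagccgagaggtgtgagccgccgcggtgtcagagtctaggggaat
Ccng1, chr11:40755237-40755536, minus strand: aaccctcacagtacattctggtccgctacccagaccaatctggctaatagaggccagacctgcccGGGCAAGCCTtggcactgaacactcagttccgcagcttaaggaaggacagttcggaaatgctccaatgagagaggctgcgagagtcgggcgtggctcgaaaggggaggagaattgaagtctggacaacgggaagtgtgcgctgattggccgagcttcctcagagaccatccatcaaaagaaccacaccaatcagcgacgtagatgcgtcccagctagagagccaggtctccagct
Mdm2, chr10:117710709-117711008, minus strand: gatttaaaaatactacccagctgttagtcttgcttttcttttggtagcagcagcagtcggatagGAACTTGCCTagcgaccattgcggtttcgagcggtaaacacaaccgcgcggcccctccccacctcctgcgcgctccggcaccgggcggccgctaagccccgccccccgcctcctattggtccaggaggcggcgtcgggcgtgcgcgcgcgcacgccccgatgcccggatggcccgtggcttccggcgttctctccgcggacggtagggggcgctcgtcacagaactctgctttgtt

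The p53 decamer consensus was found in 5 of the 11 windows of members (1 each of Bax, Ccng1, Cdkn1a, Mdm2 and Trp53), and in 8.36% of 32851 promoter windows of all genes. The pattern CATGNNNNNNCATG, which reads the same on both strands and overlaps the decamer, was found in the upstream window of Cdkn1a, at bases 203 to 216, and in 0.712% of all windows. No other member window held it. Matches are letters in these windows, not bound sites, and the best known p53 element of Mdm2 lies in its first intron, outside the window. The gene tables sum reads over whole genes, so the share of Cdkn1a reads from each start was not resolved.

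Levels are FPKM, that is, reads per kilobase of merged exon length, scaled by the authors to a total for each library. The steps in the values corresponded to between 13947777 and 18159282 reads per library, and a floor of 3 reads, for counting error only, lay at 0.156 to 0.236 FPKM for a gene with 1 kb of exon. The total that the values imply was not the sum of these reads. It was lower in LKO replicates 1 and 2 and WT replicate 3 (12704131 against 13947777 in LKO replicate 1). In the other libraries it was higher (19279637 against 16889742 in WT replicate 1). How the totals were set was not tested. The 5 hepatocyte markers measured (Alb, Apoa1, Ttr, Cps1 and Hnf4a) summed to between 45055 and 61078 FPKM in LKO and between 40925 and 55312 FPKM in WT libraries, and none was at 0. The sum is mostly Alb, and single markers were less even. Cps1 had 110, 352 and 619 FPKM in LKO replicates 1 to 3, against 146, 238 and 157 FPKM in WT replicates 1 to 3. Apoa1 had 12916, 10409 and 4228 FPKM in LKO replicates 1 to 3, against 18941, 8200 and 9959 FPKM in WT replicates 1 to 3. Both libraries numbered 1 stood apart in the number of genes with 1 to 5 reads (2368 in LKO and 2003 in WT, against 3913 to 4263 in the other 4). The targeted gene Arid2 had 2.55, 1.33 and 2.04 FPKM in LKO replicates 1 to 3, against 2.65, 1.74 and 1.79 FPKM in WT replicates 1 to 3 (limma adjusted p = 0.974). Whole-gene values cannot show a deleted exon, so Arid2 did not check the labels, and LKO and WT stand for the labelled genotypes throughout. The share of reads from mitochondrial genes was 27.6%, 7.72% and 4.76% in LKO replicates 1 to 3, against 20.7%, 10.2% and 18.5% in WT replicates 1 to 3.

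The p53 genes did not move as a group. Cdkn1a was 15.95-fold and 31.3-fold above the WT mean in LKO replicates 1 and 2 but only 1.51-fold above it in LKO replicate 3, while Ccng1 and Bbc3 were highest in LKO replicate 3 and Trp53 was lowest there. Of the 10 members, 8 had a mean of at least 0.5 FPKM over the 6 libraries and were tested. None of the 8 passed (limma on log2(FPKM + 1), Benjamini-Hochberg over 11672 genes, adjusted p under 0.05), where 0.0428% of all genes tested passed, 0.00857% higher and 0.0343% lower in LKO. At an unadjusted p under 0.05 there was 1 of 8, Cdkn1a, against 9.22% of all genes tested, 4.28% higher and 4.93% lower in LKO. The median log2 difference of the 8 was -0.39, with 3 above 0 and 5 below, against 0.035 over all genes tested. The median of the 8 was -0.039 without LKO replicate 2 and -0.075 without LKO replicate 3. Every LKO library lay above every WT library for 1 of the 8, again Cdkn1a, and below for none. Over all genes tested those shares were 8.0% and 7.42%. Cdkn1a was tested only because of its LKO level, since its WT mean was under 0.5 FPKM, so these counts of 1 are a description and no support for a change of the members. With 3 libraries per genotype, an exact permutation test of a single gene cannot go under p = 0.1.

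**Figure D1:**
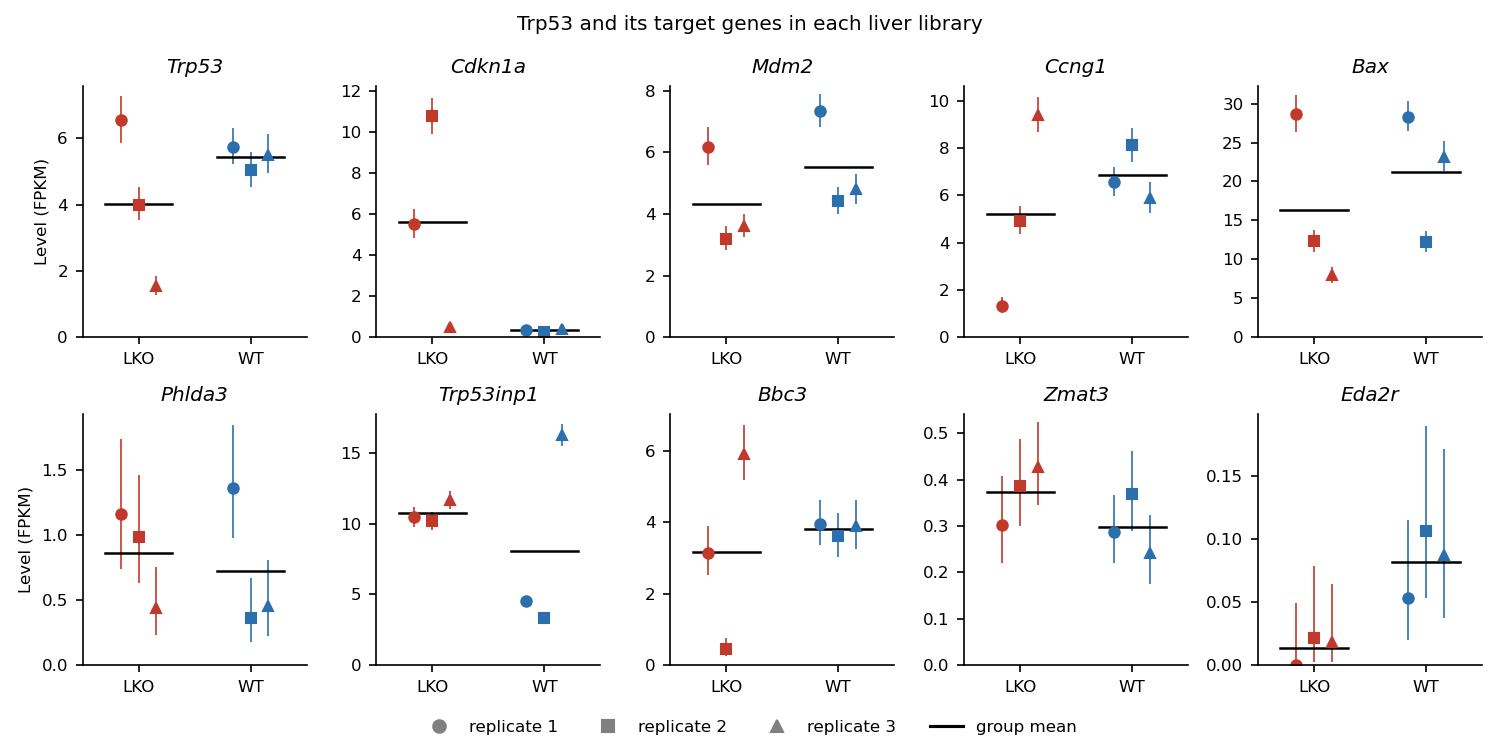
Level in FPKM (linear axes from 0) of Trp53 and its 9 target genes in each LKO (red, left) and WT (blue, right) library, with exact Poisson 95% counting intervals as vertical bars and group means as horizontal lines. Cdkn1a had 5.49 and 10.8 FPKM in LKO replicates 1 and 2 and at most 0.519 FPKM in the other 4 libraries.

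Trp53 (ENSMUSG00000059552, chromosome 11, 69580359 to 69591873, plus strand, all coordinates on mm10) had levels of 6.54, 4.0 and 1.55 FPKM in LKO replicates 1 to 3 (336, 253 and 119 reads), against 5.74, 5.03 and 5.51 FPKM in WT replicates 1 to 3 (448, 358 and 348 reads). The WT libraries lay close together, while LKO replicate 1 lay above all of them and LKO replicates 2 and 3 below. The mean was 4.03 ± 2.49 FPKM in LKO and 5.43 ± 0.363 FPKM in WT (SD, n = 3 each), a log2 difference of -0.49 ± 0.39 (SE; 95% interval -1.41 to 0.43, limma adjusted p = 0.782). Without LKO replicate 3 the log2 difference was -0.065, and without LKO replicate 1 it was -0.85. A processed copy, Trp53-ps, was at most at 0.196 FPKM.

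Cdkn1a encodes p21, the inhibitor of cyclin-dependent kinases through which p53 halts the cell cycle (ENSMUSG00000023067, chromosome 17, 29090976 to 29100727, plus strand). Its levels were 5.49, 10.8 and 0.519 FPKM in LKO replicates 1 to 3 (248, 598 and 35 reads), against 0.365, 0.272 and 0.396 FPKM in WT replicates 1 to 3 (25, 17 and 22 reads). The groups did not overlap, but LKO replicate 3 was separated from WT by less than counting error: its 95% interval of 0.361 to 0.721 FPKM overlapped that of each WT library, the highest of which reached 0.600 FPKM. The mean was 5.59 ± 5.12 FPKM in LKO and 0.344 ± 0.0647 FPKM in WT (SD, n = 3 each), with a log2 difference of 1.86 ± 0.67 (SE; 95% interval 0.29 to 3.43, limma adjusted p = 0.454). The WT mean was under the filter of 0.5 FPKM, so Cdkn1a entered the test through its LKO level. Without LKO replicate 3 the log2 difference was 2.70 (limma adjusted p = 0.0510), and without LKO replicate 2 it was 1.23 (limma adjusted p = 1.00). It was 1.67 without both libraries numbered 1. Voom on the recovered reads gave 3.09 (limma adjusted p = 0.581). Of the alternatives tried, array quality weights was the only one in which Cdkn1a passed (2.61, limma adjusted p = 0.0186), a fit that gave a weight of 2.42 to LKO replicate 2 and 5.44 to WT replicate 3 against 0.299 to 1.10 for the other 4 libraries. The ratio of the highest to the lowest LKO library, 20.8, was larger than that of 98.8% of the 11112 tested genes above 0 in all libraries. An annotated antisense gene over Cdkn1a, AC167363.2, was listed at 0 in all 6 libraries.

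The genes of negative feedback on p53, Mdm2 and Ccng1, had log2 differences below 0, unlike Cdkn1a. Mdm2 (ENSMUSG00000020184, chromosome 10, 117688875 to 117710758, minus strand), which encodes the ligase that marks p53 for degradation, had 6.18, 3.20 and 3.61 FPKM in LKO replicates 1 to 3, against 7.35, 4.42 and 4.80 FPKM in WT replicates 1 to 3. The groups overlapped through LKO replicate 1, and in both genotypes the library numbered 1 was the highest. The log2 difference of Mdm2 was -0.31 ± 0.30 (SE; 95% interval -1.01 to 0.40, limma adjusted p = 0.833). Leaving out 1 library gave between -0.54 (without LKO replicate 1) and -0.11 (without WT replicate 1), with -0.15 without LKO replicate 2. Ccng1 (ENSMUSG00000020326, chromosome 11, 40748552 to 40755311, minus strand) encodes cyclin G1, which recruits a phosphatase to MDM2. Levels were 1.32, 4.92 and 9.41 FPKM in LKO replicates 1 to 3 (59, 270 and 628 reads), against 6.57, 8.13 and 5.89 FPKM in WT replicates 1 to 3 (445, 502 and 323 reads). LKO replicates 1 and 2 lay below every WT library and LKO replicate 3 above every one, and the counting intervals of the LKO libraries did not overlap each other. The log2 difference of Ccng1 was -0.58 ± 0.51 (SE; 95% interval -1.78 to 0.63, limma adjusted p = 0.810), and it was 0.0078 without LKO replicate 1. Its LKO range, 7.12-fold, was wider than that of 94.0% of the same 11112 genes.

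The apoptosis genes Bax and Bbc3 ordered the LKO libraries differently. Bax (ENSMUSG00000003873, chromosome 7, 45461697 to 45466898, minus strand), which encodes a pore-forming protein of the mitochondrial outer membrane, had 28.6, 12.3 and 7.98 FPKM in LKO replicates 1 to 3, against 28.3, 12.2 and 23.2 FPKM in WT replicates 1 to 3. The groups overlapped, with LKO replicate 1 just above and LKO replicate 3 below every WT library. The log2 difference of Bax was -0.47 ± 0.50 (SE; 95% interval -1.65 to 0.71, limma adjusted p = 0.850), and it was -0.086 without LKO replicate 3 and -0.95 without LKO replicate 1. Bbc3 (ENSMUSG00000002083, chromosome 7, 16308393 to 16318205, plus strand), whose product PUMA neutralises the anti-apoptotic BCL2 proteins, had 3.15, 0.452 and 5.92 FPKM in LKO replicates 1 to 3 (85, 15 and 239 reads), against 3.96, 3.61 and 3.89 FPKM in WT replicates 1 to 3 (162, 135 and 129 reads). The WT libraries differed by a ratio of 1.09, among the narrowest of all genes tested (2.87% were narrower), and the LKO libraries by 13.1, wider than in 97.6%. Bbc3 was lowest in LKO replicate 2, the library in which Cdkn1a was highest. The log2 difference of Bbc3 was -0.47 ± 0.52 (SE; 95% interval -1.70 to 0.75, limma adjusted p = 0.855) and 0.15 without LKO replicate 2.

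Of the other pro-apoptotic or stress-linked members, Trp53inp1 (ENSMUSG00000028211, chromosome 4, 11156431 to 11174379, plus strand), whose product takes part in p53-dependent cell death and in autophagy, varied least among the LKO libraries of the 8 tested members. Levels were 10.5, 10.1 and 11.7 FPKM in LKO replicates 1 to 3, against 4.50, 3.32 and 16.3 FPKM in WT replicates 1 to 3. All LKO libraries lay inside the WT range, which rested on WT replicate 3. The log2 difference of Trp53inp1 was 0.66 ± 0.50 (SE; 95% interval -0.51 to 1.83, limma adjusted p = 0.771), 1.27 without WT replicate 3, and -0.17 with array quality weights. Phlda3 (ENSMUSG00000041801, chromosome 1, 135766119 to 135769136, plus strand), which encodes an inhibitor of AKT, had only 10 to 41 reads per library. Levels were 1.16, 0.985 and 0.439 FPKM in LKO replicates 1 to 3, against 1.36, 0.365 and 0.452 FPKM in WT replicates 1 to 3, with full overlap (log2 difference 0.13 ± 0.28 SE, limma 95% interval -0.53 to 0.80, adjusted p = 0.932).

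The remaining 2 members were under the filter. Zmat3 (ENSMUSG00000027663, chromosome 3, 32334792 to 32366014, minus strand), a zinc-finger RNA-binding protein gene, had 0.303, 0.386 and 0.428 FPKM in LKO replicates 1 to 3, against 0.286, 0.368 and 0.241 FPKM in WT replicates 1 to 3. The groups overlapped, although the counting interval of LKO replicate 3 (from 0.346 FPKM) lay above that of WT replicate 3 (up to 0.324 FPKM; limma adjusted p = 0.857 in the fit without a filter). Eda2r (ENSMUSG00000034457, chromosome X, 97333840 to 97377216, minus strand), which encodes a receptor of the tumour necrosis factor receptor family, had 0, 2 and 2 reads in LKO replicates 1 to 3, against 6, 11 and 8 reads in WT replicates 1 to 3. Every LKO library was at or under 0.0217 FPKM and every WT library at or above 0.0528 FPKM, so the groups did not overlap. The LKO counts were under the floor of 3 reads, and the counting interval of LKO replicate 1, with 0 reads, reached 0.0493 FPKM (limma adjusted p = 0.740 in the fit without a filter).

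**Figure D2:**
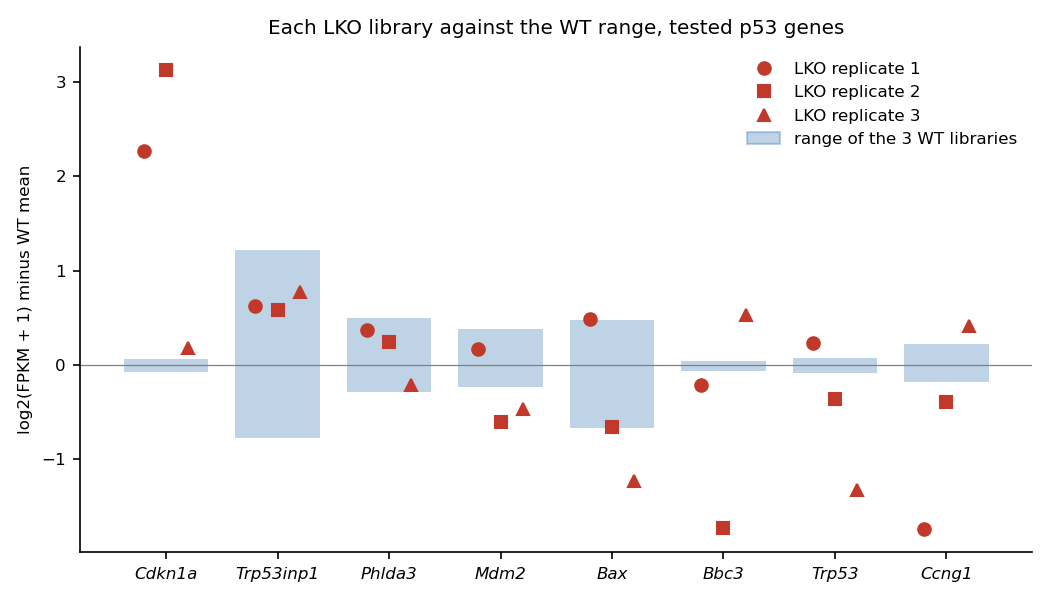
Difference of each LKO library (red points) from the WT mean on the log2(FPKM + 1) scale for the 8 tested members, with the range of the 3 WT libraries as blue boxes. Cdkn1a, Ccng1, Bbc3 and Trp53 spread over the LKO libraries in different orders, and the Trp53inp1 and Phlda3 points lie inside the WT range.

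Seen by library, LKO replicate 1 had 3 of the 8 tested members above every WT library (Trp53, Cdkn1a and Bax) and 2 below (Ccng1 and Bbc3), where 31.4% and 31.2% of all genes tested were above and below. LKO replicate 2 had 1 above (Cdkn1a) and 4 below (Trp53, Mdm2, Ccng1 and Bbc3), against 34.3% and 29.6% of all genes. LKO replicate 3 had 3 above (Cdkn1a, Ccng1 and Bbc3) and 3 below (Trp53, Mdm2 and Bax), against 37.4% and 30.4% of all genes. Cdkn1a was the only tested member on the same side of WT in all 3 LKO libraries. The spread within a genotype was wider in LKO than in WT for 6 of 8 members, and for 69.7% of the 11112 genes.

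**Figure D3:**
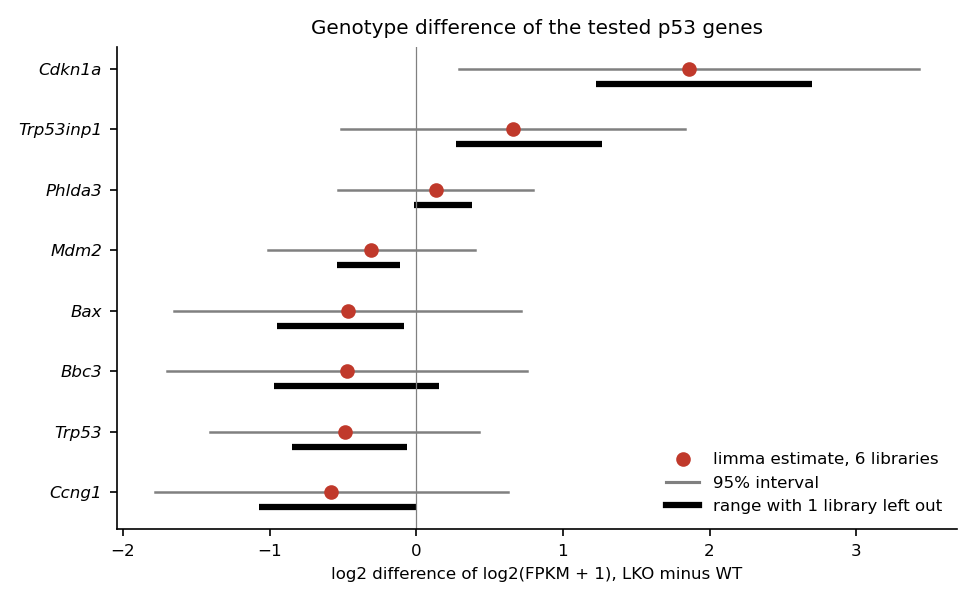
Log2 difference of log2(FPKM + 1), LKO minus WT, for the 8 tested members (red points), with limma 95% intervals (gray lines) and the range when 1 library is left out (black bars). The Cdkn1a interval, unadjusted for the number of genes, lies above 0, and the other 7 include 0.

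A further list of 44 genes regarded as p53 targets, which holds none of the 10 members, had no call either: 31 could be tested, 0 were called in either direction by limma, 5 had an unadjusted p under 0.05 (9.22% of all genes tested), and the median log2 difference was -0.042 (14 above 0, 17 below). Every LKO library lay above every WT library for 4 of the 31 and below for 0 (8.0% and 7.42% of all genes tested), and 1 of the 4 had a WT mean under 0.5 FPKM and entered through its LKO level. The counts of the lists that follow stand against the same shares. Btg2, Epha2 and Gadd45a were among these 4. Btg2, an antiproliferative and immediate early gene, had 77.9, 23.0 and 41.8 FPKM in LKO replicates 1 to 3, against 4.77, 2.49 and 5.51 FPKM in WT replicates 1 to 3 (log2 difference 3.09 ± 0.47 SE, limma adjusted p = 0.135). Gadd45a, a gene of growth arrest after DNA damage, had 46.0, 5.11 and 11.2 FPKM in LKO replicates 1 to 3, against 2.53, 3.87 and 3.27 FPKM in WT replicates 1 to 3 (limma adjusted p = 0.455). In contrast to Cdkn1a, both were lowest in LKO replicate 2 among the LKO libraries. The receptor tyrosine kinase gene Epha2 averaged 12.1 ± 8.37 FPKM in LKO and 3.31 ± 1.15 FPKM in WT (SD, n = 3 each; limma adjusted p = 0.365). Gdf15, a secreted stress cytokine gene, overlapped at 154, 24.1 and 137 FPKM in LKO replicates 1 to 3, against 38.6, 8.53 and 18.8 FPKM in WT replicates 1 to 3 (limma adjusted p = 0.489). The death receptor gene Fas (13.2 ± 4.68 FPKM in LKO and 7.52 ± 1.30 in WT), the repair gene Xpc (2.80 ± 1.06 and 1.56 ± 0.483) and the polo-like kinase gene Plk2 (1.17 ± 0.611 and 2.02 ± 0.396) overlapped between genotypes as well, with limma adjusted p from 0.603 to 0.609. With array quality weights 2 of the 31 were called higher, Btg2 and Epha2.

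Among 24 regulators of p53, 18 could be tested and 0 were called in either direction by limma, none at an unadjusted p under 0.05, with a median log2 difference of 0.069. Rchy1, which encodes another ubiquitin ligase for p53, had 5.34, 7.31 and 6.92 FPKM in LKO replicates 1 to 3, against 3.97, 4.58 and 5.07 FPKM in WT replicates 1 to 3, with no overlap (limma adjusted p = 0.637). Mdm4, the partner of MDM2 in restraining p53, averaged 3.42 ± 1.74 FPKM in LKO and 6.0 ± 2.49 FPKM in WT (SD, n = 3 each; limma adjusted p = 0.652). The acetyltransferase gene Crebbp averaged 1.57 ± 0.171 FPKM in LKO and 2.03 ± 0.0682 in WT, with no overlap (SD, n = 3 each; limma adjusted p = 0.773). Trim24 (5.32 ± 0.655 FPKM in LKO and 4.0 ± 1.39 in WT), Trp53bp2 (5.39 ± 1.92 and 3.79 ± 0.524) and the PBAF subunit gene Brd7 (4.21 ± 0.358 and 5.01 ± 0.766) overlapped between genotypes. Of the related factors, Trp73 was listed at 0 in every library and Trp63 was above 0 in 1 library only.

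Of 14 other genes of the BCL2 family, to which Bax and Bbc3 belong, 12 could be tested and 0 were called in either direction by limma. At an unadjusted p under 0.05 there were 4 of 12, and the median log2 difference was 0.18. The anti-apoptotic gene Bcl2l1, which encodes BCL-XL, had 41.9, 43.6 and 14.6 FPKM in LKO replicates 1 to 3, against 11.6, 7.49 and 6.67 FPKM in WT replicates 1 to 3 (limma adjusted p = 0.307). The BIM gene Bcl2l11, a pro-apoptotic member, had 3.0, 3.27 and 1.29 FPKM in LKO replicates 1 to 3, against 0.814, 0.715 and 0.407 FPKM in WT replicates 1 to 3 (limma adjusted p = 0.318). Both had LKO replicates 1 and 2 above LKO replicate 3, as Cdkn1a had. The anti-apoptotic Mcl1 averaged 35.0 ± 6.90 FPKM in LKO and 18.7 ± 2.45 in WT, and the pro-apoptotic Bik 1.32 ± 0.747 and 4.49 ± 1.99 FPKM (SD, n = 3 each; limma adjusted p = 0.398 and 0.319). These 4 genes did not overlap between genotypes.

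Other inhibitors of cyclin-dependent kinases did not share the level of Cdkn1a. Of 6 genes 4 could be tested, 0 were called by limma, 1 had an unadjusted p under 0.05, and the median log2 difference was -0.18. Cdkn2c lay below every WT library in each LKO library (0.440, 0.548 and 1.39 FPKM in LKO replicates 1 to 3, against 2.12, 2.29 and 1.53 in WT replicates 1 to 3, limma adjusted p = 0.419). Cdkn2d, Cdkn1c and Cdkn1b overlapped between genotypes (limma adjusted p from 0.821 to 0.974). Of 24 cell cycle genes 9 could be tested and 0 were called by limma, with 1 at an unadjusted p under 0.05 and a median of 0.043. That gene was cyclin D1, Ccnd1, with 1.57, 2.62 and 4.56 FPKM in LKO replicates 1 to 3, against 1.16, 1.16 and 0.258 FPKM in WT replicates 1 to 3 (limma adjusted p = 0.419). Birc5, Cdc20 and Aurkb, under the filter, lay below WT in every LKO library (limma adjusted p from 0.607 to 0.773 in the fit without a filter). Birc5 and Cdc20, with WT means of 0.634 and 0.625 FPKM, missed the filter through their LKO levels, so the median leaves them out. The replication clamp gene Pcna, also a p53 target in human cells, averaged 9.93 ± 3.31 FPKM in LKO and 7.14 ± 2.76 in WT, while Aurka and Ccne1 averaged at most 1.05 FPKM in either genotype. Among 8 relatives of the members 5 could be tested, 0 were called by limma, none at an unadjusted p under 0.05, and the median was -0.087. The cyclin G2 gene Ccng2 averaged 2.21 ± 0.306 FPKM in LKO and 1.70 ± 0.209 in WT, and Trp53inp2 30.6 ± 8.86 and 31.8 ± 1.58 FPKM, with Zmat1 and Tnfrsf19 also overlapping.

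Of 16 genes responsive to fasting or glucocorticoids, all tested, 0 were called in either direction by limma and 11 had an unadjusted p under 0.05 (9.22% of all genes tested). In every LKO library 8 lay above WT (8.0% of all genes tested) and 1, Tsc22d3, lay below (7.42%). Tsc22d3, among the 11, had 8.98, 16.1 and 27.6 FPKM in LKO replicates 1 to 3, against 30.2, 30.0 and 43.1 FPKM in WT replicates 1 to 3. The median log2 difference of the 16 genes was 0.89. Relative to the WT mean, the median of these genes lay at 0.71, 0.73 and 0.89 on the log2 scale in LKO replicates 1 to 3. Single genes differed from that median and from each other. Igfbp1, Mt1, Mt2, Pdk4, Fkbp5, Angptl4 and Ddit4 were lowest among the LKO libraries in replicate 3, as Cdkn1a was. Tat, Pck1, G6pc, Foxo1, Foxo3, Ppargc1a and Tsc22d3 were highest in that replicate, and Sgk1 and Irs2 were neither. The part of fasting or glucocorticoids in the Cdkn1a level was not tested. Igfbp1, which encodes a binding protein of insulin-like growth factors, had 445, 423 and 93.1 FPKM in LKO replicates 1 to 3, against 45.6, 23.1 and 40.9 FPKM in WT replicates 1 to 3 (limma adjusted p = 0.232). The metallothionein gene Mt2 had 146, 93.9 and 24.1 FPKM in LKO replicates 1 to 3, against 25.9, 2.22 and 7.29 FPKM in WT replicates 1 to 3 (limma adjusted p = 0.358). Sgk1 averaged 5.74 ± 1.35 FPKM in LKO and 2.64 ± 0.463 in WT, and Pdk4 5.57 ± 5.46 and 0.404 ± 0.204 FPKM (SD, n = 3 each; limma adjusted p = 0.320 and 0.323). Pdk4, with a WT mean under 0.5 FPKM, was tested only because of its LKO level. Of 15 clock genes 12 could be tested, 0 were called by limma, 3 had an unadjusted p under 0.05, and the median was -0.47. Bhlhe41, below WT in every LKO library and with a WT mean of 0.764 FPKM, missed the filter through its LKO level. The clock counts and median leave it out (limma adjusted p = 0.571 in the fit without a filter). The clock output gene Dbp had 7.55, 10.2 and 63.3 FPKM in LKO replicates 1 to 3, against 68.1, 101.0 and 54.2 FPKM in WT replicates 1 to 3 (limma adjusted p = 0.469), and Per3 averaged 2.28 ± 1.28 FPKM in LKO and 6.43 ± 1.66 in WT. Per3, Tef and Ciart were lowest in LKO replicate 2 and Dbp in LKO replicate 1. No source used here gives the hour of collection.

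**Figure D4:**
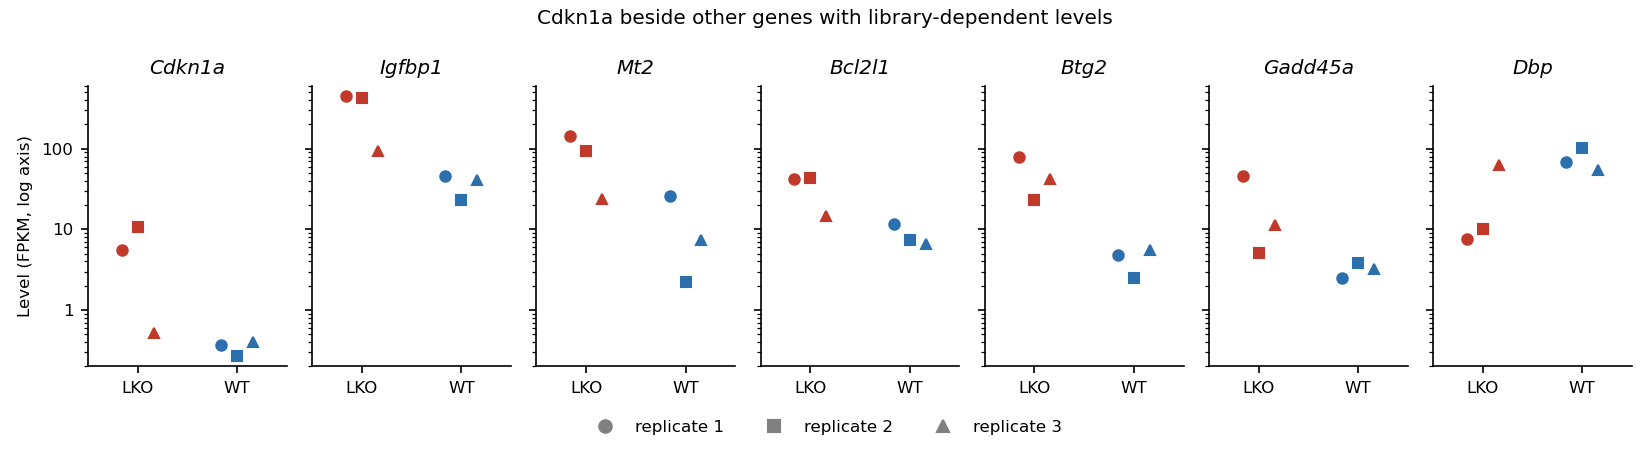
Level in FPKM (log axes, 1 scale for all panels) of Cdkn1a and 6 other genes in each LKO (red, left) and WT (blue, right) library, with symbols for the replicate number. Igfbp1, Mt2 and Bcl2l1 were highest in LKO replicates 1 and 2 like Cdkn1a, Btg2 and Gadd45a were highest in LKO replicate 1, and Dbp was lowest in LKO replicates 1 and 2.

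Markers of other cells were measured beside these levels. The 5 neutrophil markers summed to 15.9, 11.1 and 3.25 FPKM in LKO replicates 1 to 3, against 3.74, 0.803 and 3.39 FPKM in WT replicates 1 to 3, with S100a9, Retnlg and Ngp at 0 in at least 1 library and Ngp at 0 in all 6. Like Cdkn1a, the sum was higher in LKO replicates 1 and 2 than in LKO replicate 3, though highest in replicate 1, and the part of these cells in the Cdkn1a level was not tested. Immediate early genes, which respond to signalling and to tissue handling, had 14 of 17 tested, 0 called by limma, 3 at an unadjusted p under 0.05 and a median of 0.75. Relative to the WT mean, their median lay at 1.31, 0.0023 and 0.48 on the log2 scale in LKO replicates 1 to 3, and their part in the Cdkn1a level was not tested. Atf3 (5.08 ± 3.93 FPKM in LKO and 0.378 ± 0.119 in WT), Junb (91.7 ± 38.7 and 38.7 ± 5.58) and Fosl2 (2.48 ± 1.62 and 0.754 ± 0.166) lay above WT in every LKO library, and Ier3 overlapped. Atf3 also entered the test only through its LKO level. Marker sums in LKO and WT libraries overlapped for Kupffer cells (12.6 to 38.4 against 12.7 to 37.3 FPKM), endothelium (9.37 to 27.5 against 16.9 to 26.9), stellate cells (10.7 to 18.1 against 8.57 to 14.9), cholangiocytes (7.06 to 28.3 against 10.3 to 18.1), lymphocytes (0.519 to 1.78 against 1.65 to 1.78) and erythroid cells (91.2 to 149 against 139 to 330). The erythroid sum is mostly globin: all 5 erythroid markers had log2 differences below 0 (median -0.78), and Alas2, the heme synthesis gene of red cell precursors, did not overlap, with 1.77, 3.62 and 5.70 FPKM in LKO replicates 1 to 3, against 13.0, 44.1 and 25.8 FPKM in WT replicates 1 to 3 (limma adjusted p = 0.183). The cholangiocyte sum was 7.77, 28.3 and 7.06 FPKM in LKO replicates 1 to 3. Each of its 5 markers, 2 of them tested, was highest in LKO replicate 2, as Cdkn1a was. The part of any of these cell types in the members' levels was not tested. No marker of Kupffer cells, endothelium, stellate cells, cholangiocytes or erythroid cells was at 0 in any library. In whole liver, fewer cells of a type and less RNA per cell cannot be told apart.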

How the data were processed

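Total RNA from liver was made into NEBNext Ultra libraries, per the labels' protocols. Listed in the submitters' processing notes, with no role stated, are DESeq2 1.20.0, featureCounts 1.5.0-p3, HISAT2 2.0.5, CASAVA and the build mm10. No source used here gives the annotation release or whether counting used strand. The authors deposited 1 table of FPKM per library with 54532 identifiers. The unit was read from the values: FPKM times merged exon length in GENCODE vM21, which held 54495 of the identifiers, gave whole reads within 0.05 for 96.1% to 96.4% of values, depending on the library. Groups and replicate numbers come from the titles. Reads are those steps, and counting intervals are exact Poisson at 95%, for counting error only.

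The test was limma-trend (limma 3.58.1, R 4.3.3) with robust empirical Bayes on log2(FPKM + 1), which understates changes of low genes, over the 11672 genes whose mean reached 0.5 FPKM, LKO minus WT, Benjamini-Hochberg over all of them, threshold 0.05. The fit was tested on simulated data. The members and lists were chosen with earlier results of these data known. Named were all members, Arid2, and the genes of each list with the smallest p: 8 of the other p53 targets, 6 regulators, and 4 of each remaining list. The values of 1 gene so chosen are not reported here. The hepatocyte marker Tf was not matched by symbol. Alternatives were no filter, a filter at 1 FPKM, 0.1 as the pseudocount, quantile normalization, a common sum of FPKM, the replicate number as a block, voom on recovered reads, array quality weights, and leaving out each library or both numbered 1. Figures used Python 3.11.15, pandas 2.3.3 and matplotlib 3.10.9.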

Additional observations from a re-analysis of the deposited data

How the results depend on the processing

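The count of genes called, 5, stayed at 5 with a pseudocount of 0.1 and a filter at 1 FPKM, and was 6 with voom. It was 1 with no filter, 3 with quantile normalization, 3 with a common sum of FPKM, 2 without both libraries numbered 1 and 0 with the replicate number as a block (1478 at an unadjusted p under 0.05). With array quality weights, a fit that stopped short of its convergence tolerance, it was 1195, with Cdkn1a the only member among them, and 16 of the named genes gained a call. With 1 library left out it ranged from 0 to 17, highest without LKO replicate 3. The cause was not tested. The median of the members ranged from -0.45 to -0.039 with 1 library left out, and that of the other p53 targets from -0.078 to 0.14. Signs turned for Trp53inp1 (-0.17) and Cdkn1b (0.070) with array quality weights, and for Cdkn1b (0.26) and Trp53inp2 (0.076) without both libraries numbered 1. With 1 library left out the log2 difference ranged from -1.07 to 0.0078 for Ccng1, -0.014 to 0.38 for Phlda3, -0.97 to 0.15 for Bbc3, -0.19 to 0.12 for Arid2, -0.12 to 0.29 for Cdkn1c, -0.32 to 0.24 for Cdkn1b, -0.31 to 0.047 for Trp53inp2 and -0.020 to 0.53 for Ccne1. Same-numbered libraries deviated together for numbers 1 and 2 (correlation of deviations over genes 0.49 and 0.30) but not for 3 (-0.023). LKO replicate 3 and WT replicate 2, of different numbers, also deviated together (0.45). The correlation largest in size was negative, between LKO replicate 1 and WT replicate 2 (-0.58). The remaining pairs of different numbers lay between -0.36 and 0.036. Deviations within a genotype sum to 0 for each gene, so these correlations are not independent of each other. Whether a shared number marks a pair or a batch was not tested. The block called no member. Depth limits Phlda3, Eda2r, and Cdkn1a outside LKO replicates 1 and 2.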
